A study of Saccharomyces cerevisiae W303 with 4 samples.

Results

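The 4 genes SCR1, RPR1, SNR6 and SNR52 of budding yeast, which RNA polymerase III transcribes although they encode no tRNA, were examined among 6431 annotated nuclear genes for peaks of the Zuo1 ChIP-seq. They were chosen by name with their fold enrichments and peaks already known, and SCR1 in particular because it lies under the second strongest peak. Their fold enrichments are therefore given as a description, without a test. Each gene was scored with 500 bp on either side, and the 275 nuclear tRNA genes, scored the same way, served for comparison.

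The study measured where Zuo1 sits on chromatin, with the question whether it is found at G4 motifs. Immunoprecipitated (IP) DNA and input DNA, the sheared chromatin before precipitation, were sequenced as 2 replicate libraries each, and the labels do not say whether replicates came from separate cultures. All libraries came from a single strain of the W303 background, in which Zuo1 carries Myc epitopes at its C-terminus, and which was grown at 30 °C and crosslinked with 1% formaldehyde. A strain without the tag was not analysed here. The authors pooled the libraries before they called peaks, so that each peak has 1 value for the fold enrichment of IP over local background at its summit and no spread between replicates.

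RNA polymerase III makes short untranslated RNAs. At tRNA genes the factor TFIIIC binds a pair of elements inside the gene, the A box and the B box, and brings in TFIIIB, and the polymerase stops at a run of T. The 4 genes vary this plan. SCR1 encodes the RNA of the signal recognition particle, which directs growing secretory proteins to the endoplasmic reticulum. RPR1 encodes the RNA of RNase P, which removes the leader from tRNA precursors. SNR6 encodes U6, the RNA at the catalytic heart of the spliceosome. SNR52 encodes a box C/D small nucleolar RNA that guides methylation of ribosomal RNA. RPR1 and SNR52 have their promoter boxes in a leader before the mature RNA, whereas the B box of SNR6 lies downstream of the gene. Zuo1 itself is a J-protein that works with nascent proteins at the ribosome and is also found in the nucleus.

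The stretches that carry the promoter elements and the peak summits are shown first, as the RefSeq copy of R64 gives them, 5′ to 3′ on the strand of each gene. Positions are counted from +1 at the first base of the gene. For SCR1, on the plus strand, the start of the gene (chrV:441937-442086) and 101 bases around the summit (chrV:442210-442310) are given. RPR1 (chrV:117886-118125) and SNR52 (chrV:431129-431350) lie on the minus strand, and SNR6 (chrXII:366195-366484) on the plus strand. Capitals mark TATAAA at SCR1 and SNR6, the matches to the loose B box GNNCNANNC in the first stretch of SCR1 and in the other genes, and, as single letters, the base at the summit.

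SCR1 start: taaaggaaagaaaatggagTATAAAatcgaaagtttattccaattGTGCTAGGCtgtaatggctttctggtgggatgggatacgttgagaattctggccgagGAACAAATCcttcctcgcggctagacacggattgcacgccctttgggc
SCR1 summit: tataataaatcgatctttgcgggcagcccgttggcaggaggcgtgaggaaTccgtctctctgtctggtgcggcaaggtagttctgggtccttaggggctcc
RPR1: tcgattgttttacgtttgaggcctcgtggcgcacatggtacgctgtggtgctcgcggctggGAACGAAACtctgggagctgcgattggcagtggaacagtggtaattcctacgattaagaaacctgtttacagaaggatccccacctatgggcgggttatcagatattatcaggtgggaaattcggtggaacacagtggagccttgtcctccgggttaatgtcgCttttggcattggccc
SNR52: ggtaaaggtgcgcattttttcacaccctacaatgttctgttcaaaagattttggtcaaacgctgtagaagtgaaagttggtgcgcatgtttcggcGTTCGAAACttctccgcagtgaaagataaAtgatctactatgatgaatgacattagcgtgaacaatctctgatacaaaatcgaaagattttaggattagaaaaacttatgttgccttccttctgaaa
SNR6: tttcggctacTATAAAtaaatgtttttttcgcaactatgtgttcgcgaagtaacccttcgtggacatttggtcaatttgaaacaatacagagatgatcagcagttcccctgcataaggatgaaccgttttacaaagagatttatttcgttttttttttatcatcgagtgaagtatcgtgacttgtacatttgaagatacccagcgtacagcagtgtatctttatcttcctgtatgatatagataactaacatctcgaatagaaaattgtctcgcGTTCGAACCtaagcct

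SCR1, RPR1 and SNR52 each lay wholly under a peak, and SNR6 did not. Thus 3 of the 4 genes had a peak within 500 bp, compared with 81.1% of the tRNA genes, 43.9% of the 1327 other nuclear genes that are no longer than SCR1 and 32.2% of all 6427 other nuclear genes. With only the gene body scored, the number was again 3 of 4, against 75.6% of the tRNA genes, 31.8% of the short genes and 21.2% of all other genes. All 3 peaks were of 3-fold or more. Within 500 bp such a peak was found at 11.6% of the tRNA genes, 17.0% of the short genes and 12.6% of all other nuclear genes, and over the gene body at 9.09%, 10.4% and 7.89%. Since the genes were chosen with their peaks known, nothing is read from these counts.

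**Figure D1:**
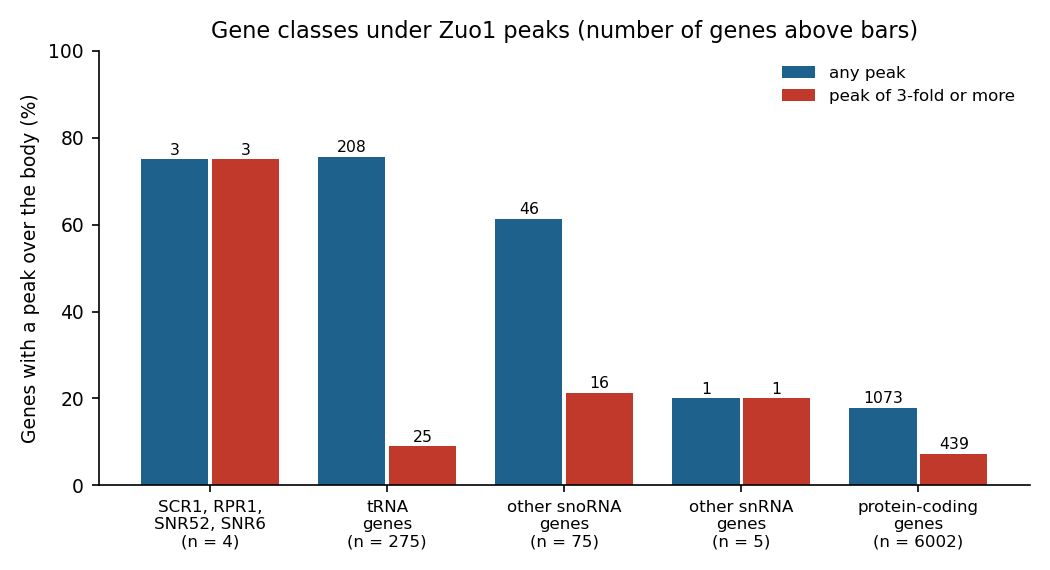
Share of genes with a peak over the gene body (y axis, percent) for the 4 genes and for other classes, with any peak (blue) and with a peak of 3-fold or more (red) and the number of genes above each bar. Of the tRNA genes 208 had a peak and 25 had one of 3-fold or more, while the 4 genes had 3 in both.

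SCR1 had the highest value. The gene spans 441987 to 442508 on the plus strand of chromosome V, and its peak runs from 441834 to 442844, with the summit at 442260. The fold enrichment at the summit was 12.3, the second highest of the 1594 peaks of the list. Between the neighbours in rank, the peak above it, of 14.1-fold, lies in NOP1 and the peak below it, of 12.0-fold, in NPL3, an RNA-binding protein gene. The summit was covered by 521 IP fragments with a scaled local background of 41.3. Both numbers were solved for from the enrichment and its p-value. At most 522 fragments were recovered at any peak, and this is also the most that 1 read per position and strand allows for fragments of 261 bp, the length of the shortest peak. SCR1 was thus 1 fragment below this limit, which 2 peaks in the rDNA reached, so its count was close to the most that could be recorded, and the upper end of its counting interval below lies beyond the limit.

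RPR1 came next. It lies on the minus strand of chromosome V from 117667 to 118035, and its peak from 117585 to 118402 had a summit at 117901 and a fold enrichment of 5.67. This rested on 231 IP fragments over a background of 39.9, and 153 peaks of the list were stronger. SNR52, on the minus strand of chromosome V from 431129 to 431220, lay under a peak from 431029 to 431702 with its summit at 431226. Its fold enrichment of 3.43 rested on 145 IP fragments over a background of 41.6, and 77.2% of all peaks were weaker.

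With exact Poisson intervals of 95% for the fragments and the background held fixed, the fold enrichment was 11.3 to 13.4 at SCR1, 4.96 to 6.44 at RPR1 and 2.90 to 4.03 at SNR52. The intervals cover counting error only, and the error between replicates is unknown.

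**Figure D2:**
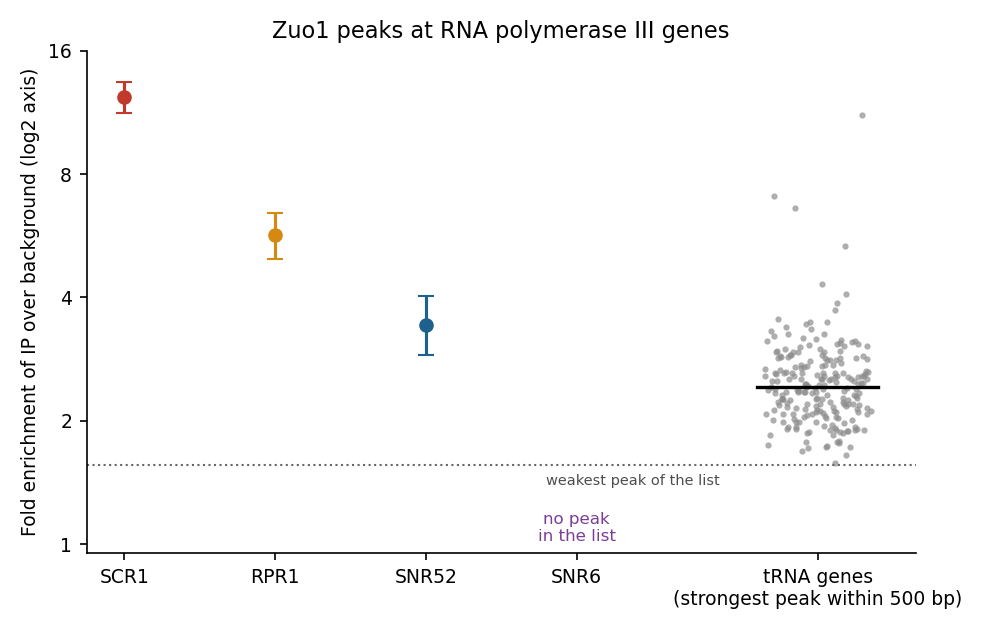
Fold enrichment of IP over background at the summit (y axis, log2 scale) for the 4 genes, with 95% counting intervals as bars, and for the strongest peak within 500 bp of each tRNA gene as grey dots, without the gene whose window reaches the SCR1 peak. The black line is the tRNA median of 2.41, the dotted line is the weakest peak of the list with 1.56, and SCR1, RPR1 and SNR52 lie above it with 12.3, 5.67 and 3.43.

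No peak was called within 500 bp of SNR6, which lies on the plus strand of chromosome XII from 366235 to 366346. The list holds only called peaks, so it has no value for this gene, and the weakest peak of the list had a fold enrichment of 1.56. An enrichment below what the caller accepts was not detectable here. The nearest peak begins 2725 bp after the gene, spans 369072 to 370279 and reached 10.6-fold. It overlaps AHP1, a peroxiredoxin gene, and CCW12, a cell wall protein gene. SNR6 was not alone in this among genes of the polymerase, since 52 of the 275 tRNA genes also had no peak within 500 bp.

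The window of 500 bp changed little for the other genes. At SCR1 it also touched the edge of a second peak of 2.46-fold, which begins 440 bp after the gene and has its summit at 443449, outside the window. That peak covers a gene for an isoleucine tRNA, YNCE0025C, and the end of a Ty1 retrotransposon. The next peak beyond the window begins 1656 bp from SCR1 and had 2.86-fold. At RPR1 the next peak was 5093 bp away with 4.81-fold, and at SNR52 it was 2910 bp away with 1.93-fold.

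The typical tRNA gene peak was much weaker than those of SCR1 and RPR1. The strongest peak within 500 bp of a tRNA gene had a median fold enrichment of 2.41 over 223 genes, with quartiles of 2.10 and 2.78. The enrichment was 5.11 times this median at SCR1 (counting interval 4.68 to 5.57), 2.35 times at RPR1 (2.06 to 2.67) and 1.42 times at SNR52 (1.20 to 1.67). One of the 223, YNCE0025C, had the SCR1 peak itself as the strongest in its window. Among the other 222, none was above SCR1, 3 were above RPR1 and 12 were above SNR52.

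The 3 tRNA genes above RPR1 were YNCF0014C for lysine with 11.1-fold, TRN1 for proline with 7.09-fold and SUF2 for proline with 6.62-fold. The first value comes from a peak with its summit 631 bp from the centre of the tRNA gene, over RSC8 and CDC26, and the tRNA gene body itself lay under a peak of 2.64-fold. The peak at TRN1 extends over SSA1, a chaperone gene of the Hsp70 family, with its summit 397 bp from the centre of TRN1. The summit at SUF2 lay 9.5 bp from the centre of the gene. When only the 153 tRNA genes with a summit within 100 bp of their centre were taken, SUF2 alone was above RPR1 and 5 genes were above SNR52. The tRNA genes closest in fold enrichment were YNCF0014C for SCR1, YNCE0005W for serine with 5.34-fold for RPR1 and YNCK0016W for leucine with 3.44-fold for SNR52.

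The higher fold enrichment than at tRNA genes came with more IP fragments and not with a lower background. Both numbers were solved for from the fold enrichment and its p-value, so they are not separate support for it. Both names rest on the assumption that the fold runs from IP over input. The summits of SCR1, RPR1 and SNR52 had 521, 231 and 145 IP fragments, while the tRNA genes had a median of 93 with quartiles of 81 and 107. The scaled background was 41.3, 39.9 and 41.6 fragments at the 3 genes, against a median of 38.1 at tRNA genes with quartiles of 36.9 and 39.3. The background at the 3 genes was thus 1.08, 1.05 and 1.09 times the tRNA median, and a higher background lowers the fold enrichment.

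**Figure D3:**
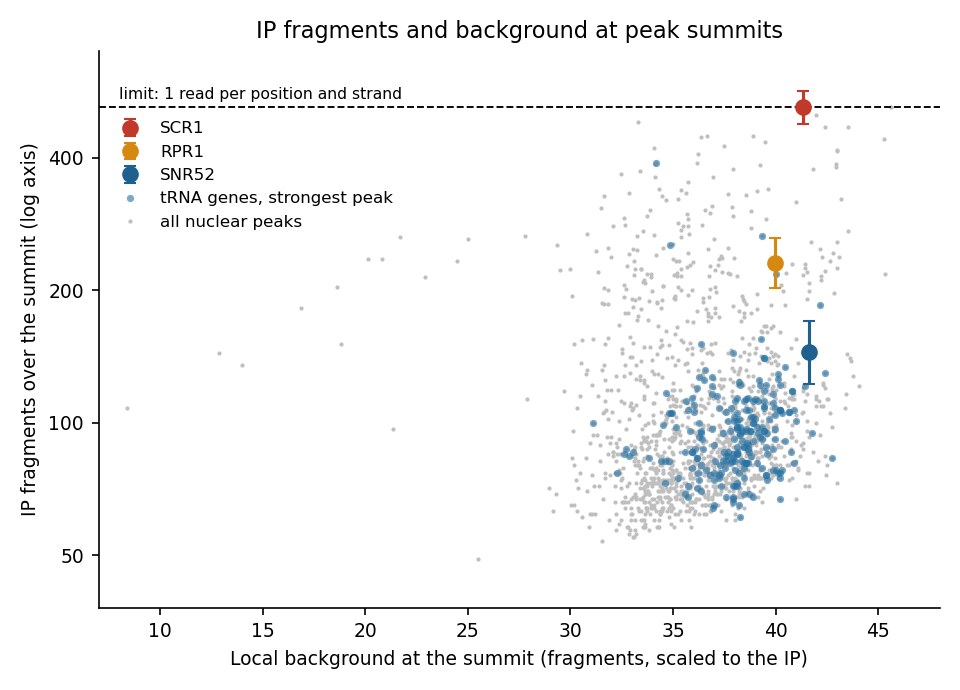
IP fragments over the summit (y axis, log scale) against the scaled local background (x axis, fragments) for SCR1, RPR1 and SNR52 with 95% counting intervals, for the strongest peaks at tRNA genes (blue) and for all nuclear peaks (grey). SCR1 with 521 fragments lies just under the dashed limit of 522, and the tRNA genes gather around a median of 93.

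The peaks were longer than the typical tRNA gene peak. They measured 1011 bp at SCR1, 818 bp at RPR1 and 674 bp at SNR52, compared with a median of 418 bp at tRNA genes and quartiles of 336.5 and 597 bp. The genes SCR1 and RPR1 are themselves 522 and 369 bp long. The part of gene length and of fold enrichment in peak length was not tested. A longer peak was found at 13 of the other 222 tRNA genes for SCR1, at 23 for RPR1 and at 42 for SNR52. The SCR1 peak extends 153 bp before the gene and 336 bp after it. The peaks of RPR1 and SNR52 extend farther before the gene, with 367 and 482 bp, than after it, with 82 and 100 bp.

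The summits lay in or next to the genes. At SCR1 it lay at position +274 of 522, within the RNA and 12.5 bp past the centre. At RPR1 it lay at +135 of 369, which is 50 bp before the centre, and at SNR52 at -6, which is 51.5 bp before the centre and just outside the annotated gene. At tRNA genes the summit was a median of 56 bp from the gene centre in either direction, and 68.6% of the summits were within 100 bp. The distances at the 3 genes were thus below the tRNA median, as the plot of summit distance shows.

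**Figure D4:**
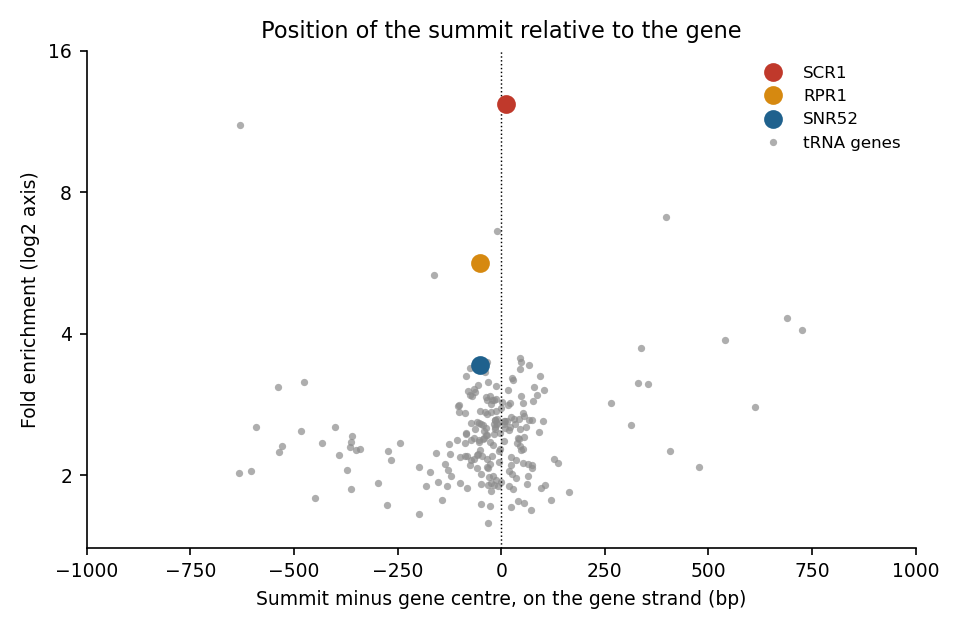
Fold enrichment (y axis, log2 scale) against the distance of the summit from the centre of the gene on the gene strand (x axis, bp, negative before the centre) for SCR1, RPR1, SNR52 and 216 tRNA genes, with 6 tRNA genes beyond 1000 bp left off. The summits of the 3 genes lie within 51.5 bp of the centre, and 68.6% of the summits at tRNA genes lie within 100 bp.

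The promoter elements, which the choice of genes did not use, were read from the sequence. The B box was searched on the gene strand as GTTCNANNC, which 98.2% of the tRNA genes and 28.6% of the other nuclear genes hold in the gene body. None of the 4 genes has it in the body. At SNR52 it reads GTTCGAAAC at -35 to -27 of the leader, where 2.18% of the tRNA genes and 1.20% of the other genes have a match within 100 bp before the gene. The summit is 29 bp from the first base of this box. At SNR6 it reads GTTCGAACC at +235 to +243, after the end of the gene. The window of SNR6 thus holds the strict form GTTCGANNC, as do the windows of 74.5% of the tRNA genes and 10.3% of the other genes. At RPR1 the matches to GTTCNANNC lie at +362 and +811, past the summit, and the window of SCR1 has none.

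With the loose form GNNCNANNC, a search added after seeing the data, the RPR1 leader holds GAACGAAAC at -29 to -21, and SCR1 holds GTGCTAGGC from -5 and GAACAAATC at +53 to +61. This form is common, since 12.4% of the other genes have it within 100 bp before the gene and 97.4% within 500 bp. The A box, searched on the gene strand, had no match in the 4 windows. A match was found in 31.6% of the tRNA windows and in 22.8% of those of the other genes. The search found an A box in the body of only 29.1% of the tRNA genes. Nothing is therefore read from the lack of a match at the 4 genes. TATAAA lies 31 bp before SCR1 and 30 bp before SNR6. It was found within 100 bp before 9.45% of the tRNA genes and 12.6% of the other genes. The first run of 5 T on the gene strand begins at +518 in SCR1, +398 in RPR1, +109 in SNR6 and +97 in SNR52. It thus falls within 5 bp of the annotated end at SCR1, SNR6 and SNR52, and 29 bp past it at RPR1. Such a run lies within 500 bp of 100% of the tRNA genes and 99.4% of the other genes. The share with a run this near the end was not counted, so nothing is read from its position. Within 500 bp TATAAA is common, in all 4 windows, in 72.0% of the tRNA windows and in 80.1% of those of the other genes.

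No G4 motif, a sequence that can fold into a G-quadruplex and was searched as 4 runs of at least 3 G separated by 1 to 25 bases, lay on either strand within 500 bp of any of the 4 genes or in their peaks. The whole nuclear genome holds 634 such regions, set against 6431 annotated nuclear genes. The share of other genes with one within 500 bp was not counted, so nothing is read from this absence. The GC content of the gene was 55.0% at SCR1, 51.5% at RPR1, 39.3% at SNR6 and 31.5% at SNR52, against a median of 54.2% at tRNA genes. SNR52 and SNR6 had less GC than every tRNA gene, the lowest of which had 44.3%. The part of GC content in the peaks was not tested.

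All 4 genes have a long terminal repeat (LTR) of a Ty retrotransposon within 500 bp. A repeat of this kind or a whole retrotransposon lies as near to 62.9% of the tRNA genes, 16.6% of the short genes and 6.96% of all other nuclear genes. Ty elements are known to insert near genes of RNA polymerase III. A Ty1 LTR lies 90 bp before SNR6 and another 269 bp before SNR52, a Ty4 LTR lies 194 bp before RPR1, and the LTR at SCR1, of Ty1, is 225 bp after the gene. The peaks cover 111 bp of the LTR at SCR1, 173 bp at RPR1 and 213 bp at SNR52, but no summit lies in an LTR. The SCR1 peak also covers all 320 bp of the replication origin ARS519, which overlaps the 3′ end of the gene. SNR6 has the nearest LTR of the 4 and no peak. At tRNA genes with a repeat within 500 bp, 80.3% had a peak with a median of 2.38-fold, and of those without one 82.4% had a peak with a median of 2.52-fold. The part of the repeats in the peaks was not tested, and the reference is of strain S288C, so that repeats of W303 may lie elsewhere.

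**Figure D5:**
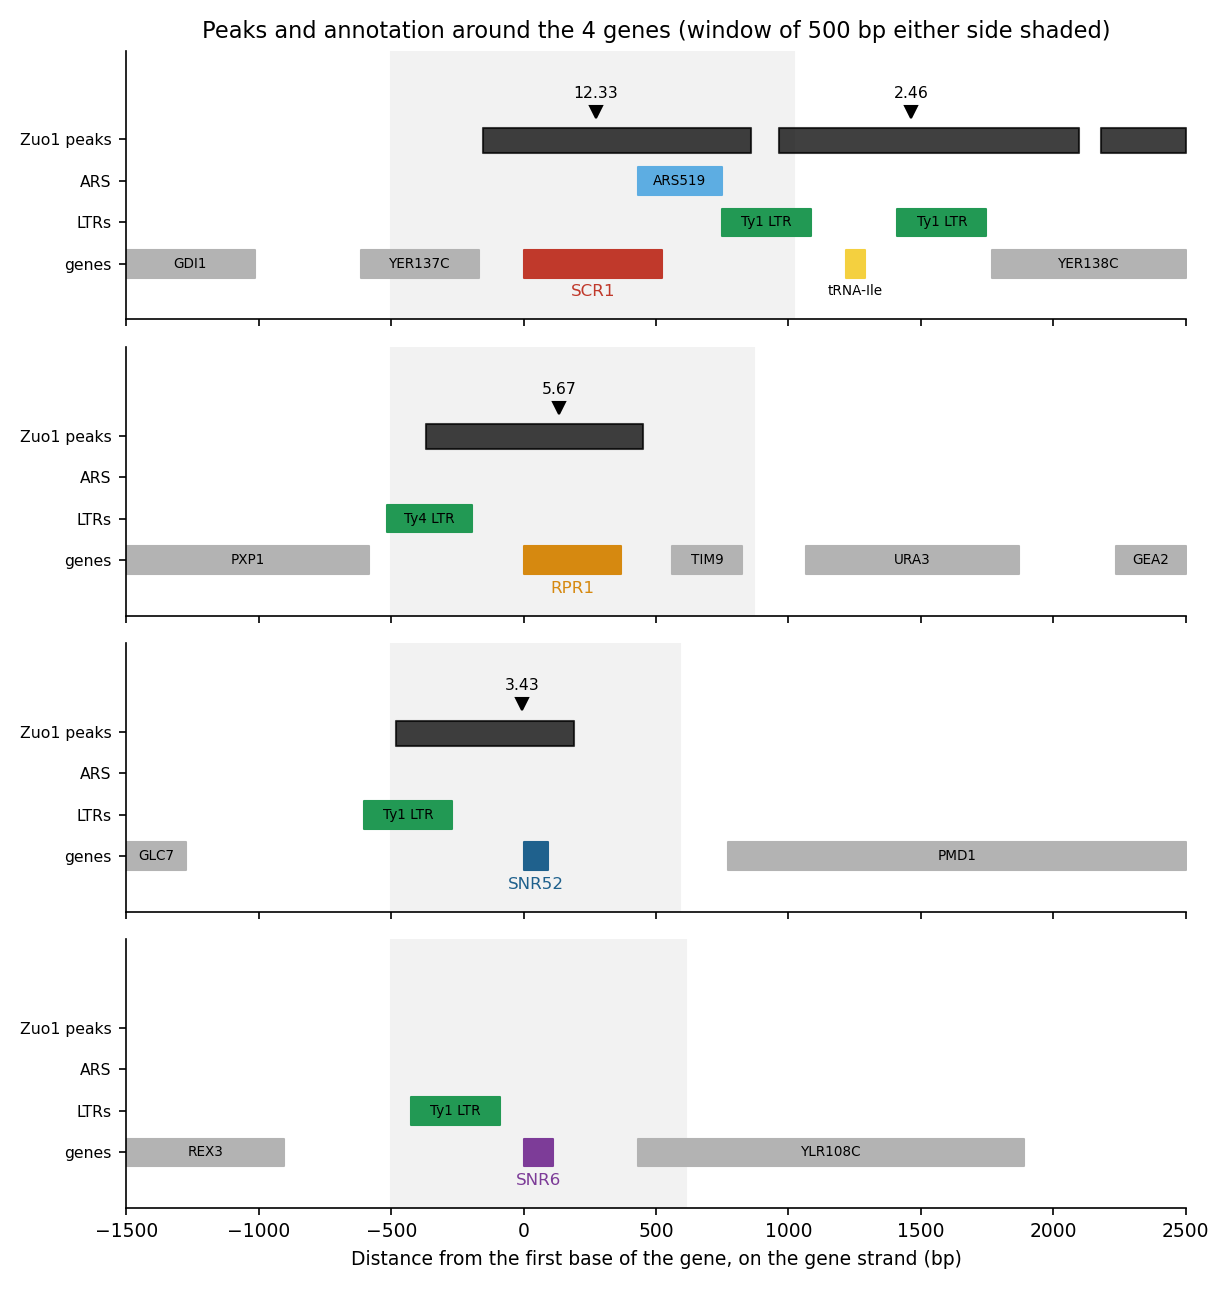
Zuo1 peaks (black bars, with a triangle at the summit and its fold enrichment), replication origins (ARS), LTRs and genes around SCR1, RPR1, SNR52 and SNR6, drawn to scale from the first base of each gene on its own strand (x axis, bp). The shaded window spans 500 bp either side, and a peak covers each gene except SNR6, whose LTR lies 90 bp before it.

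Exact words of the reference are unique at the bodies of the 4 genes. The rest of the windows and peaks, with their LTRs, was not checked. Mismatches and the sequence of W303 were not checked either. Every 64-base word of the reference that overlaps SCR1, RPR1, SNR6 or SNR52 occurs once in the genome, and so does every 36-base word. Of the tRNA genes, only 22 (8.0%) have 64-base words that are all unique, since many are copies of each other. Of these 22, 14 had a peak over the body, with a median of 2.37-fold and a highest value of 2.90-fold. SCR1, RPR1 and SNR52 were above these values over the gene body. Within 500 bp, 16 of the 22 had a peak, and YNCM0019W was above SNR52 with 4.07-fold, from a peak that does not reach the tRNA gene itself.

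Other transcripts of RNA polymerase III are the 5S ribosomal RNA and RNA170, an RNA of unknown function. The 6 annotated copies of the 5S gene lay under peaks of 8.70-fold to 11.2-fold, against 12.3-fold at SCR1. At RDN5-1, RDN5-2 and RDN5-6 the peaks had 522 fragments, the limit given above, over a background of 45.6, against 521 fragments over 41.3 at SCR1, so that their order with SCR1 rests on the background. The 5S genes are repeats within the rDNA, so reads are shared between copies. RDN5-1 and RDN5-2 lie under the same peak, from 451233 to 469394. Its summit is at -3248 of RDN5-1 and at -12385 of RDN5-2. At RDN5-6 the summit is at +832, past the gene of 121 bp. The values of these 3 were thus taken outside the 5S gene. RDN5-3, RDN5-4 and RDN5-5 had the summit in the gene, with 9.50-fold, 8.70-fold and 9.45-fold. RNA170 had no peak within 500 bp.

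RNAs made by RNA polymerase II that work beside these 4 gave values below SCR1 and RPR1, and some were above SNR52. NME1 encodes the RNA of RNase MRP, a relative of RNase P, and it had a peak of 2.30-fold, against 5.67-fold at RPR1. Of the 5 annotated genes for spliceosomal RNAs other than U6, LSR1 (U2) alone lay under a peak, of 3.67-fold with the summit at +1379, past the end of the gene of 1175 bp, and 4 had none over the body. Of the 75 other small nucleolar RNA genes, 46 lay under a peak, with a median of 2.74-fold and a highest value of 4.31-fold at SNR55, SNR57 and SNR61, which share a peak. SNR52 with 3.43-fold was exceeded by 12 of them. These are not 12 separate peaks, since the clustered genes SNR72 to SNR78 also share one, of 4.05-fold. Both genes of the U3 RNA lay under peaks, SNR17A with 2.86-fold at a summit past its end and SNR17B with 1.86-fold, and the telomerase RNA gene TLC1 did not.

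Lists of genes for proteins that work with these RNAs or with RNA polymerase III were scored as well. Of the 6 protein genes of the signal recognition particle (SRP14, SRP21, SRP54, SRP68, SRP72 and SEC65), 0 had a peak over the body or within 500 bp. Of the 9 protein genes listed for RNase P and RNase MRP, POP6 alone lay under a peak, of 2.46-fold, and proteins outside the list were not scored. That peak is also the peak of the small nucleolar RNA gene SNR46 and has its summit past the end of POP6. RPR2 had a peak of 4.49-fold within 500 bp that does not reach the gene. Of 10 genes for partners of U6, among them LSM2 to LSM8 and LHP1, 0 had a peak over the body and 3 had one within 500 bp, where 32.2% of all other nuclear genes had one. Of 10 genes for RNA polymerase III factors and their regulator, MAF1, the repressor of the polymerase, had one of 1.84-fold, and TFC3, for a TFIIIC subunit, had one of 2.62-fold within 500 bp but not over the body. Of the 4 genes for box C/D proteins, 3 lay under a peak. NOP1, the methyltransferase of these particles, had the strongest peak of the list with 14.1-fold, with its summit at +133 of a gene of 984 bp. NOP56 had 2.14-fold, with the summit past its end, and NOP58 1.94-fold, and SNU13 had none. Over the gene body, 17.9% of the 6002 protein-coding genes and 21.2% of all other nuclear genes had a peak. Within 500 bp, 29.2% of the protein-coding genes had one. The lists were drawn up with results of these data known, so nothing is read from their counts.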

How the data were processed

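ChIP-seq was performed on 2 IP and 2 input libraries, grouped by their sample titles. The authors aligned the reads to sacCer3 with bowtie, given as Bowtie2 in the processing notes of the submitters, and pooled the libraries in 1 MACS2 run for narrow peaks at a q-value of 0.05. In the command of the reporting summary, libraries of both kinds stand on both sides, and the fold was taken here to run from IP over input. The deposited list has the narrow peak layout under a header of another table and was read by position. From it came the fold enrichment, a ratio that the authors' MACS run gave for the summit of each peak, and the deposited −log10 p. The deposited score, 10 times the −log10 q, was not used, and the summit offset, another deposited column, is in bp.

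Annotation and sequence came from R64, in which 16 of the 17 reference sequences end exactly where a deposited peak ends and 0 peaks run past an end. A peak counted when it shared 1 bp with a gene and 500 bp either side. IP fragments and background at the summit were solved for from the Poisson p-value and from the enrichment, which MACS computes after adding 1 to either number. The solution was a whole number within 0.05 for every peak, and the scripts were tested on simulated data. A summit had a median of 91 IP fragments. Intervals are exact Poisson at 95%. The depth of single libraries and the reads were not used here. Scripts ran under Python 3.11.15 with SciPy 1.17.1, NumPy 2.4.6, pandas 2.3.3 and matplotlib 3.10.9.

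The genes, the lists and the alternatives were chosen with earlier results of these data known, and no test was made. Alternatives were other windows, a minimum of 3-fold, the summit in place of overlap, merging of peaks closer than 300 bp, other sets of tRNA genes, other ranks, the peak midpoint, other B box letters and 36-base words. Added after seeing the data were tRNA genes without the peaks of the 4 genes, near repeats or with a centred summit, and the loose B box. Genes named are the 4 genes, the annotation at their windows and peaks and partner genes with a peak over the body. Also named are the 10 strongest tRNA genes apart from YNCE0025C, the tRNA genes closest in fold and the neighbours of SCR1 in rank. The last were given only as far as a comparison used them. AHP1, CCW12, RNA170, TLC1, SNU13, RPR2 and TFC3 were named after their values were seen. So were SNR46, SNR55, SNR57, SNR61, SNR72 to SNR78 and the genes under the 3 strongest tRNA peaks.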

Additional observations from a re-analysis of the deposited data

How the results depend on the processing

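The number of the 4 genes with a peak was 3 under each alternative tried, that is, windows of 0, 250 and 1000 bp, a minimum of 3-fold, the summit inside the window and merging of peaks closer than 300 bp. Of the tRNA genes, 208 to 228 of 275 had a peak under these, except with the minimum of 3-fold, which left 32 in place of 223. The median over tRNA genes was 2.38 to 2.55, so that the enrichment over it was 4.84 to 5.18 times at SCR1, 2.23 to 2.38 times at RPR1 and 1.35 to 1.44 times at SNR52. SCR1 ranked 1 by −log10 p, 3 by IP fragments and 2 without chromosome ends and rDNA. The midpoint of the peak lay at -145 at SNR52 in place of the summit at -6. Without the addition of 1, 10.5% of the recovered fragment numbers were whole, in place of every one. No paired analysis was possible because the peak list used here pools the libraries, and for the same reason no replicate could be left out. The pooled list sets the limits: values below the caller's threshold, as at SNR6, are not in it, SCR1 sits 1 fragment below the ceiling of countable fragments, and the spread between replicates is unknown.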

Other observations

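The tRNA genes were ranked by the strongest peak in their window, without YNCE0025C, whose strongest peak is that of SCR1. Among the top 10, the summit lay more than 100 bp from the centre of the gene in 7. Besides the 3 above RPR1, YNCE0005W for serine (5.34-fold) shared its peak with HYP2, UTR5 and MTC7, and YNCL0040W for aspartate (4.31-fold) shared the peak of SNR61, SNR55 and SNR57. YNCM0019W for phenylalanine had 4.07-fold from a peak over ARG80 that does not reach the tRNA gene body. YNCH0016C for valine (3.54-fold) and YNCB0016W for aspartate (3.49-fold) had summits within 100 bp of their centre, and the peak of YNCB0016W also covers the arginine tRNA gene YNCB0015W.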
